A study of Mus musculus with 6 samples.

Results

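The genes described here encode 10 receptors, or receptor chains, for the colony-stimulating factors and cytokines that expand and steer myeloid-derived suppressor cells (MDSCs): Csf1r, Csf2ra, Csf2rb, Csf2rb2, Csf3r, Il3ra, Il6ra, Il4ra, Ifngr1 and Ifngr2. They were taken by name from an RNAseq table of 34745 genes, and each name matched 1 row. Monocytic MDSCs (M-MDSCs) of C57BL/6 mice were compared between 2 genotypes, with 3 libraries each. Wild-type (WT) mice, which the methods list as purchased, served as controls. The mTOR-/- cells came from Lyz-mTOR mice, in which Lyz-Cre, a Cre recombinase driven by the myeloid lysozyme promoter, deletes floxed Mtor, the gene of a kinase that controls growth and autophagy, in cells of the myeloid line. The methods list the Lyz-Cre and floxed parent lines as provided by another institute and give no strain for them. Where the WT mice used were the purchased ones, genotype and mouse source cannot be told apart. The study's methods describe bone marrow cells grown with GM-CSF and IL-6 and then sorted, with M-MDSCs defined as CD11b+Ly6G-Ly6Chigh; the extraction notes call the sorted cells fresh. Neither source gives the age of the mice, and the methods give n = 3 for the mice of the RNAseq without saying that each library is 1 animal, so the p-values below measure only the spread between these libraries.

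M-CSF, the ligand of Csf1r, drives monocytes and macrophages, and its receptor is a tyrosine kinase. The other receptors have no kinase of their own. They bind Janus kinases (JAKs), which phosphorylate STAT factors that then enter the nucleus. GM-CSF and IL-3 each use a private alpha chain, Csf2ra or Il3ra, together with the shared beta chain Csf2rb, and mice carry a further beta chain, Csf2rb2, which serves IL-3. Signals through Csf2rb act mainly through STAT5, those of G-CSF and IL-6 mainly through STAT3, and those of IL-4 and IL-13 through STAT6.

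The libraries held between 12317507 and 14768126 counts. Library mTOR-/- replicate 3 correlated with the others of its genotype at r = 0.952 and 0.955 across genes, against 0.973 between mTOR-/- replicates 1 and 2 and 0.978 to 0.981 among the WT libraries, so values without it are given where it matters. Mtor itself was at 72.4 ± 3.24 CPM (counts scaled to a common library total by TMM normalisation) in mTOR-/- cells and 65.2 ± 5.01 CPM in WT cells (SD, n = 3), a log2 fold change of 0.15 (edgeR adjusted p = 0.442). The whole-gene count of Mtor was thus not lower in the libraries labelled mTOR-/-, and a count over the whole gene does not show whether the floxed part was present. Lyz2, the myeloid lysozyme gene, was at 1024 ± 153 CPM in mTOR-/- cells and 3281 ± 840 CPM in WT cells (log2 fold change -1.68, edgeR adjusted p = 0.00255). The study genotyped Lyz-Cre mice with primers named for a wild-type and a mutant Lyz allele. The part of the Lyz-Cre allele in the Lyz2 difference was not tested. Of the sort markers, Itgam (CD11b) was abundant in every library. Ly6c2 had 891, 1100 and 1363 counts in mTOR-/- cells and 2562, 1691 and 3169 in WT cells, and Ly6g had 173, 139 and 198 against 12, 35 and 71. Both differences passed the test, with Ly6c2 lower (log2 fold change -0.999, edgeR adjusted p = 0.0426) and Ly6g higher (2.26, edgeR adjusted p = 0.0365) in mTOR-/- cells.

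Of the 10 receptor genes, 4 were higher in mTOR-/- M-MDSCs and 0 were lower at an edgeR adjusted p under 0.05. Csf1r, Csf2ra, Csf3r and Il6ra rose, by 1.41-fold, 1.79-fold, 1.55-fold and 2.02-fold. The other 6 did not pass the test. At an unadjusted p under 0.05, 6 of the 10 passed, 5 higher and 1 lower, against 21.2% of all genes (11.7% higher, 9.52% lower). DESeq2 called 5 of the 10, of which 1, Csf2rb2, was lower, against 9.13% of all genes (5.07% higher, 4.06% lower). In edgeR's test over all 12537 genes, 4.04% passed at the adjusted p in either direction, 2.18% were higher and 1.87% were lower. The 4 genes remained called when mTOR-/- replicate 3 was left out. Fits without WT replicate 2 or without WT replicate 3 called none of the 10, so each of the 4 calls was lost without either of these libraries. At the study's threshold, which adds a fold change of at least 2, Il6ra alone passed, against 1.69% of all genes. The median log2 fold change was 0.15 over the 10 receptors and 0.00 over all genes tested. In 6 of the 10 genes the libraries of the genotypes did not overlap in CPM, 5 with mTOR-/- higher and 1 with WT higher; this held for 28.4% of all genes, 14.5% with mTOR-/- higher and 13.9% with WT higher. Because the RNA is from a bulk population, more cells of a type and more RNA per cell cannot be told apart in any of these differences.

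Csf1r encodes the M-CSF receptor, a surface marker of monocytes and macrophages. Its row (ENSMUSG00000024621) lies on chromosome 18 at 61105572 to 61132149 in the mm10 build. The gene was at 385, 392 and 396 CPM in mTOR-/- replicates 1, 2 and 3. In WT replicates 1, 2 and 3 it was at 263, 291 and 278 CPM. Every mTOR-/- library thus lay above every WT library, and the spread within each genotype was small. The log2 fold change was 0.50 (SE 0.08, 95% interval 0.31 to 0.68, edgeR adjusted p = 0.0136), the smallest adjusted p of the 10 receptors. It ranged from 0.45 to 0.53 when single libraries were left out, and the call was lost without any 1 of the WT libraries (edgeR adjusted p = 0.0553 to 0.0935). The 3′ end of Csf1r overlaps Hmgxb3 on the other strand in the GENCODE M21 annotation, and the strand setting of the counting is not stated, so reads of the overlap cannot be assigned.

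The summed level of 7 macrophage markers (Adgre1, Mertk, C1qa, C1qb, C1qc, Marco and Cd68) was higher in WT cells. It ranged from 611 to 797 CPM in mTOR-/- cells and from 849 to 964 CPM in WT cells. Adgre1 and Cd68 made up most of each sum, with log2 fold changes of -0.35 and -0.36. Mertk and C1qb, both at low counts, had log2 fold changes of 1.00 and 0.04. None of these 4 tested markers passed. C1qa and C1qc fell below the filter on low counts, and Marco had no count in any library. Monocyte markers summed to 1200 to 1345 CPM in mTOR-/- cells and 1362 to 1542 CPM in WT cells. Most of each sum came from Itgam (CD11b), which has 2 rows. Neither of these passed (log2 fold changes -0.16 and 0.01, edgeR adjusted p = 0.599 and 0.995). Among the 6 tested rows, 1 was higher (F13a1) and 1 lower (Ly6c2). The part of such shifts in the Csf1r difference was not tested. Its ligand Csf1 had 1369, 1555 and 1332 counts in mTOR-/- cells and 1820, 2288 and 1914 counts in WT cells. That difference did not pass (log2 fold change -0.34, edgeR adjusted p = 0.121), and the alternative ligand Il34 had 3 counts in 1 library and none in the others.

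Over the 6 libraries, the genes whose log2 CPM, centred on its mean, followed Csf1r most closely were Alkbh5, Dusp5, Plcb3, Ptk2b and Donson. The root mean square difference from Csf1r was 0.05 for Alkbh5, Dusp5, Plcb3 and Ptk2b and 0.06 for Donson, on the log2 scale. Alkbh5 encodes an RNA demethylase, Dusp5 a phosphatase of the ERK kinases, Plcb3 a phospholipase C and Ptk2b a focal adhesion kinase family member. Log2 fold changes of these genes were 0.51, 0.59, 0.53 and 0.50, and the test called each of them. For Donson, a DNA replication factor, it was 0.48 and was not called (edgeR adjusted p = 0.146). The likeness is a description over 6 libraries that share the genotype contrast. Fold changes near that of Csf1r follow from choosing genes by this likeness, so the calls are no separate result.

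Csf2ra encodes the alpha chain that binds GM-CSF. The files place its row (ENSMUSG00000059326) on chromosome 19 at 61224402 to 61228418. Levels were 695, 717 and 1185 CPM in mTOR-/- replicates 1 to 3 and 487, 531 and 433 CPM in WT replicates 1 to 3. The groups did not overlap, but mTOR-/- replicate 3 stood far above the other libraries. The log2 fold change was 0.84 (SE 0.20, 95% interval 0.40 to 1.28, edgeR adjusted p = 0.0477). Without mTOR-/- replicate 3 it was 0.54 (SE 0.10, edgeR adjusted p = 0.0230). Leaving out mTOR-/- replicate 1, or any 1 of the WT libraries, ended the call (edgeR adjusted p = 0.0561 to 0.199). On the deposited FPKM values the difference was alike in size, 0.82 on the log2(FPKM + 0.1) scale, but was not called (limma adjusted p = 0.0820).

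To show the start-site region of the genes that rose, the RefSeq promoter windows of Csf2ra, Csf3r and Il6ra are printed below, with that of Csf2rb2, a receptor gene that did not rise. Each holds the 250 bases before and the 50 after the RefSeq start in GRCm38.p6, in the direction of the gene. Capitals mark matches to 4 motifs searched on both strands: GAGGAAG for PU.1, the factor that drives the myeloid line; TTGCNNAA for C/EBP; TTCNNNGAA for the GAS element bound by STAT factors; and GGGCGG for Sp1.
Csf2ra, chr19:61228369-61228668, minus strand: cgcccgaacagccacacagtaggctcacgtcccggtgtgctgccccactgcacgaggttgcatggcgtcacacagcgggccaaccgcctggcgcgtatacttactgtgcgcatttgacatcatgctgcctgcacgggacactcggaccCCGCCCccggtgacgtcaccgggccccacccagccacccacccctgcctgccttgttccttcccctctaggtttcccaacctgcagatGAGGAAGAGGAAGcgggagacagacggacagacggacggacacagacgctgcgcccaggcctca
Csf3r, chr4:126024409-126024708, plus strand: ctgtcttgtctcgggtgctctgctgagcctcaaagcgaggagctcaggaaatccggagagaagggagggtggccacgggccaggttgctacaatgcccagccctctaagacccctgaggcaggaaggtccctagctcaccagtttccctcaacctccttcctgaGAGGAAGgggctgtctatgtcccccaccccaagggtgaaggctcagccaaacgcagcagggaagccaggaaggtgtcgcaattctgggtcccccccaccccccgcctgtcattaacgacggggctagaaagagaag
Il6ra, chr3:89913147-89913446, minus strand: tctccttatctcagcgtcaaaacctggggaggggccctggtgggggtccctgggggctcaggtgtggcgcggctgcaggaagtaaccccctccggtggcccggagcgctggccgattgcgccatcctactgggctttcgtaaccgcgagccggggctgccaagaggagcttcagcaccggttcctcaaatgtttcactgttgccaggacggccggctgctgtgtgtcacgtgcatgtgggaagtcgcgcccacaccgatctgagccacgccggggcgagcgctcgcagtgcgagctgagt
Csf2rb2, chr15:78305672-78305971, minus strand: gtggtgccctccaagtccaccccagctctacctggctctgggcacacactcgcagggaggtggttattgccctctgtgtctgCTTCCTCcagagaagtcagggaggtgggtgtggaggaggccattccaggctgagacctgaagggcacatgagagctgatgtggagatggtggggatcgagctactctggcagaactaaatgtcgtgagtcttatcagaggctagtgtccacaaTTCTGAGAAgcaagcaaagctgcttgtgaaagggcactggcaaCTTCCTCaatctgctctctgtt
In Csf2ra, PU.1 letters occur at -14 and -8, counted from the start, and overlap by 1 base, and Sp1 letters occur at -102 on the reverse strand. Csf3r has PU.1 letters at -86. Csf2rb2 has them on the reverse strand at -168 and 28, and GAS letters at -15. None of the 4 motifs was found in the Il6ra window. A window was held for 8 of the 10 genes, all but Csf1r and Csf2rb. Of these 8, PU.1 letters were in 3, C/EBP letters in 1 (Il3ra), GAS letters in 1 and Sp1 letters in 5. Among all 32841 RefSeq promoter windows the shares were 13.6% for PU.1, 10.8% for C/EBP, 8.3% for GAS and 35.7% for Sp1. These matches describe the letters only, and binding was not measured.

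Neither of the beta chains passed the test. Csf2rb (ENSMUSG00000071713) lies on chromosome 15 at 78325990 to 78351000. It was at 3462, 3414 and 3205 CPM in mTOR-/- replicates 1 to 3 and at 3475, 3836 and 3453 CPM in WT replicates 1 to 3. The groups overlapped, with a log2 fold change of -0.09 (SE 0.11, 95% interval -0.34 to 0.15, edgeR adjusted p = 0.656). Counts of Csf2rb alone took 0.325% to 0.345% of all counts in mTOR-/- cells and 0.340% to 0.380% in WT cells.

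Csf2rb2 (ENSMUSG00000071714) lies beside it on the other strand of chromosome 15, at 78282517 to 78305603. Its levels were 1194, 1234 and 1173 CPM in mTOR-/- replicates 1 to 3 and 1449, 1570 and 1404 CPM in WT replicates 1 to 3. All mTOR-/- libraries lay below all WT libraries. The log2 fold change was -0.30 (SE 0.10, 95% interval -0.51 to -0.08), which did not pass after adjustment over all genes (edgeR adjusted p = 0.121). The DESeq2 Wald test called it lower, at -0.30 (DESeq2 adjusted p = 0.0236), so this gene changed sides with the tool.

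The beta chain genes arose by duplication, so their sequences were compared to see how far reads can be told apart. In the GENCODE M21 transcripts, the coding sequences of 2691 bases (Csf2rb) and 2637 bases (Csf2rb2) aligned over 2631 bases with 95.2% identity. Among gap-free aligned stretches of 60 bases that lie within a single exon of each gene, the least alike held 13 mismatches, written in capitals:
Csf2rb, chr15:78338893-78338952, plus strand, exon 5: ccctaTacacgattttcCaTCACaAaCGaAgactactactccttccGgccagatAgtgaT
Csf2rb2, chr15:78294379-78294438, minus strand, exon 4: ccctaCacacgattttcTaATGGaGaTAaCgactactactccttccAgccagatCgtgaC
The longest run the coding sequences shared was 242 bases. Of all windows of 150 bases in the whole transcripts, 3.47% of those in Csf2rb were found unchanged in Csf2rb2. The share of those in Csf2rb2 found in Csf2rb was 3.59%. Reads from such windows could be split or dropped by the counting, so the sum of the genes was tested too. It had a log2 fold change of -0.15 (SE 0.11, edgeR adjusted p = 0.471) and was not called under any alternative tried.

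Il3ra encodes the IL-3 alpha chain (ENSMUSG00000068758, chromosome 14, 14346495 to 14355490). It was at 27.7, 24.7 and 28.2 CPM in mTOR-/- replicates 1 to 3 and 27.6, 23.8 and 26.9 CPM in WT replicates 1 to 3. The values interleave. The log2 fold change was 0.04 (SE 0.14, 95% interval -0.27 to 0.35, edgeR adjusted p = 0.894). The interval holds no change as well as changes of up to 0.35 on the log2 scale. An antisense gene, Gm48860, overlaps the start of Il3ra, so reads there cannot be assigned without the strand.

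Basophils and mast cells, which use IL-3, carry several of these receptors. Their listed markers were Cpa3, Fcer1a, Ms4a2, Mcpt8, Prss34 and Gata2. These summed to 357 to 450 CPM in mTOR-/- cells and 1125 to 1209 CPM in WT cells, and Cpa3 and Gata2 made up most of each sum. Cpa3, Mcpt8 and Gata2 were lower. The other 3, Fcer1a, Ms4a2 and Prss34, did not pass, with log2 fold changes of 0.45, -0.65 and -0.57. Eosinophil markers summed to 52.7 to 75.5 CPM in mTOR-/- cells and 109 to 130 CPM in WT cells, with Prg2 lower among 5 tested. The part of these cells in the Csf2rb2 and Il3ra values was not tested. Il3 and Il5 had no count in any library. Csf2, which encodes the GM-CSF that the culture supplies as protein, had 5, 0 and 8 counts in mTOR-/- cells and 0, 0 and 5 in WT cells.

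**Figure D1:**
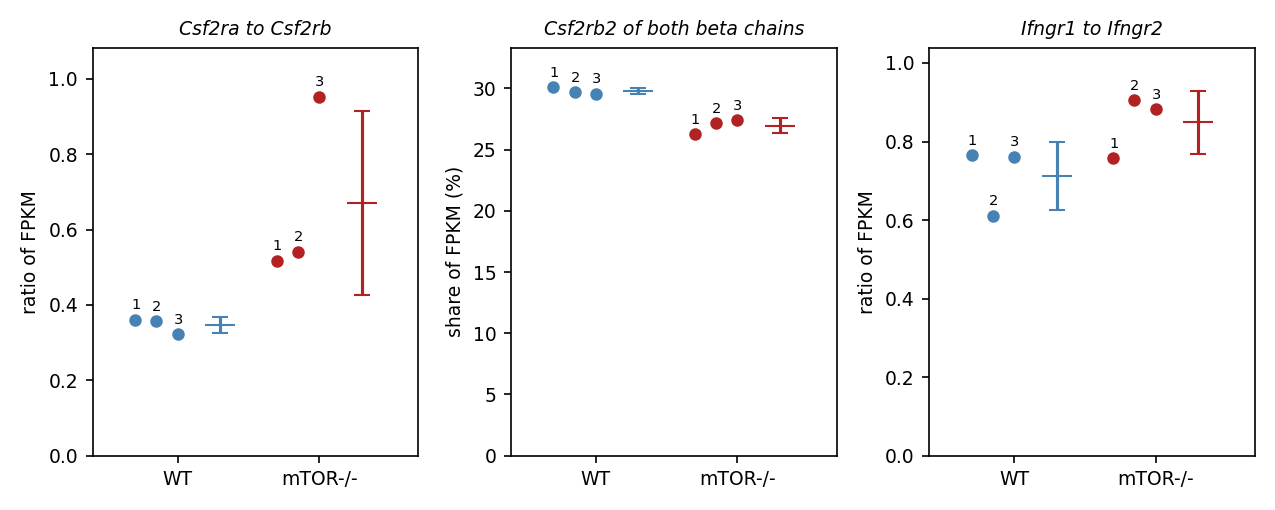
Within-library ratios of FPKM (reads per length of the gene and per library total) for Csf2ra over Csf2rb (left) and for Ifngr1 over Ifngr2 (right), and the share of Csf2rb2 in the FPKM of both beta chains (middle), with a numbered point per library and bars for mean and SD. The 3 mTOR-/- libraries lie above the 3 WT libraries for Csf2ra over Csf2rb and below them for the Csf2rb2 share, and the groups overlap for Ifngr1 over Ifngr2.

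Within each library the balance of GM-CSF receptor chains was compared on the deposited FPKM values, which divide by gene length. Csf2ra RNA was 0.518, 0.541 and 0.953 times that of Csf2rb in mTOR-/- replicates 1 to 3. In WT replicates 1 to 3 it was 0.361, 0.356 and 0.323 times. The mean ratio was 0.670 ± 0.245 in mTOR-/- and 0.347 ± 0.0209 in WT cells (SD, n = 3), 1.93 times as high. All mTOR-/- ratios lay above all WT ratios. The mTOR-/- mean was raised by replicate 3, at 0.953 against 0.518 and 0.541 in replicates 1 and 2. The share of Csf2rb2 in both beta chains was 26.3%, 27.2% and 27.4% in mTOR-/- cells and 30.1%, 29.7% and 29.6% in WT cells. These shares did not overlap either. Il3ra over Csf2rb2 was 0.0742 ± 0.00699 in mTOR-/- cells and 0.0588 ± 0.00757 in WT cells, again with no overlap. Each of these 3 differences had a two-sided exact permutation p of 0.1, the smallest that 3 against 3 libraries allow, and 0.22 after Benjamini-Hochberg adjustment over the 11 ratios computed, so none could pass. The remaining ratios included Csf1r over Csf2ra, Csf1r over Csf3r, Il6ra over Il6st and Il4ra over Il2rg, whose groups overlapped.

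Csf3r encodes the G-CSF receptor, which drives neutrophil production (ENSMUSG00000028859, chromosome 4, 126024550 to 126044440). Its levels were 191, 194 and 262 CPM in mTOR-/- replicates 1 to 3. They were 148, 135 and 136 CPM in WT replicates 1 to 3. The groups did not overlap, and mTOR-/- replicate 3 was again the highest. The log2 fold change was 0.63 (SE 0.13, 95% interval 0.34 to 0.92, edgeR adjusted p = 0.0314), and 0.46 without that library (edgeR adjusted p = 0.0239). Without any 1 of the WT libraries the call was lost (edgeR adjusted p = 0.0967 to 0.144). Its promoter window is printed above.

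Neutrophil markers were split beside Csf3r. Their sum ranged from 2369 to 2698 CPM in mTOR-/- cells and from 2105 to 2429 CPM in WT cells, which overlap. Mmp8 made up most of each sum and did not pass (log2 fold change 0.34, edgeR adjusted p = 0.180), although its groups did not overlap. Of the 9 markers, all tested, Ly6g and S100a8 were higher, and Ngp and Ltf, which encode granule proteins, were lower. Ltf fell by 2.04 on the log2 scale (edgeR adjusted p = 0.00214). The part of neutrophils in the Csf3r difference was not tested. Csf3, which encodes G-CSF, had at most 8 counts in any library.

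Il6ra encodes the ligand-binding chain of the IL-6 receptor (ENSMUSG00000027947, chromosome 3, 89864059 to 89913196). This was the scarcest of the 10 RNAs, with 229, 263 and 206 counts in mTOR-/- replicates 1 to 3 and 168, 115 and 103 counts in WT replicates 1 to 3. In CPM it was at 18.7, 20.3 and 15.8 in mTOR-/- cells and 11.9, 7.86 and 7.34 in WT cells. The groups did not overlap, and the gap from the highest WT to the lowest mTOR-/- library was narrower than the spread within either genotype. The log2 fold change was 1.01 (SE 0.23, 95% interval 0.50 to 1.52, edgeR adjusted p = 0.0407). It lay between 0.88 and 1.25 with single libraries left out, and the call held only without mTOR-/- replicate 3 and without WT replicate 1. On the log2(FPKM + 0.1) scale it was 0.97 and was not called (limma adjusted p = 0.0835), and on the log2(FPKM + 1) scale, which shrinks changes at such low levels, it was 0.56 and was not called (limma adjusted p = 0.0638). The antisense gene Gm42809 overlaps the start of Il6ra.

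The signalling chain that Il6ra pairs with, Il6st (gp130), was at 31.5 ± 5.72 CPM in mTOR-/- cells and 19.3 ± 6.67 CPM in WT cells and was not called (log2 fold change 0.71, edgeR adjusted p = 0.160). Il6 itself had 3415, 4412 and 4317 counts in mTOR-/- cells and 3777, 4599 and 3149 in WT cells. Its groups overlapped (log2 fold change 0.23, edgeR adjusted p = 0.352). IL-6 protein was also part of the culture medium.

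**Figure D2:**
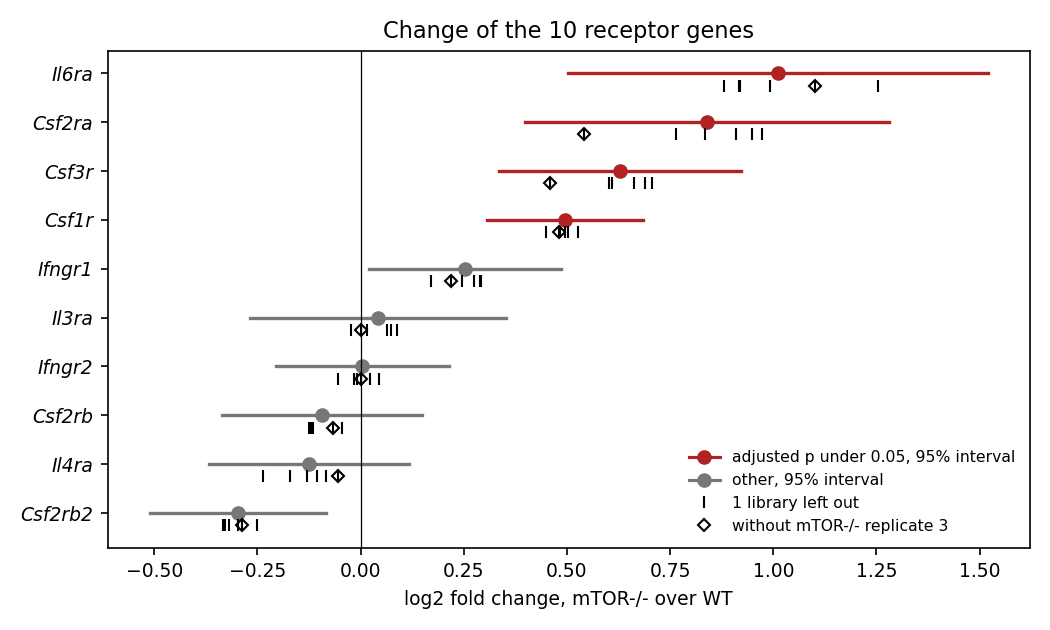
Log2 fold change of each receptor gene in mTOR-/- over WT cells with its 95% interval from the edgeR fit, beside values with single libraries left out. Diamonds mark the fit without mTOR-/- replicate 3 and ticks the fits without each other library. The intervals of Csf1r, Csf2ra, Csf3r, Il6ra and, barely, Ifngr1 lie above 0, that of Csf2rb2 lies below 0, and the Csf2ra point without mTOR-/- replicate 3 sits at 0.54, well below the value of 0.84 from all libraries.

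Il4ra is the chain shared by the IL-4 and IL-13 receptors (ENSMUSG00000030748, chromosome 7, 125552120 to 125579474). It was at 276, 323 and 254 CPM in mTOR-/- replicates 1 to 3 and 293, 328 and 309 CPM in WT replicates 1 to 3. The groups overlapped, with a log2 fold change of -0.12 (SE 0.11, 95% interval -0.37 to 0.12, edgeR adjusted p = 0.543). Its partner chains were not called either, with log2 fold changes of -0.03 for Il2rg and -0.31 for Il13ra1 (edgeR adjusted p = 0.865 and 0.302). Il4 had 17, 19 and 50 counts in mTOR-/- cells and 73, 94 and 74 in WT cells, and Il13 had 4, 10 and 0 against 24, 28 and 11. Neither ligand passed the test (edgeR adjusted p = 0.133 and 0.245), although their counts did not overlap between the genotypes.

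Ifngr1 and Ifngr2 encode the chains of the interferon gamma receptor, of which Ifngr1 binds the ligand and Ifngr2 completes the signalling complex. Ifngr1 (ENSMUSG00000020009, chromosome 10, 19591949 to 19610229) was at 119, 123 and 128 CPM in mTOR-/- replicates 1 to 3 and 110, 91.7 and 109 CPM in WT replicates 1 to 3. All mTOR-/- libraries were above all WT libraries, but the log2 fold change of 0.25 (SE 0.10, 95% interval 0.02 to 0.49) did not pass (edgeR adjusted p = 0.202). Ifngr2 (ENSMUSG00000022965, chromosome 16, 91547072 to 91565169) was at 132, 114 and 122 CPM in mTOR-/- cells and 121, 126 and 121 CPM in WT cells. Its log2 fold change was 0.00 (SE 0.09, 95% interval -0.21 to 0.21, edgeR adjusted p = 0.985). Ifngr1 over Ifngr2 FPKM was 0.848 ± 0.0800 in mTOR-/- and 0.712 ± 0.0876 in WT cells, and these ratios overlapped (exact permutation p = 0.3). Ifng had 7 counts in 1 mTOR-/- library and none in the others.

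Levels of different receptors were compared on the FPKM scale, since CPM grows with the length of a gene. By mean FPKM over the 6 libraries the order was Csf2rb, Csf2ra, Csf2rb2, Csf1r, Ifngr2, Il4ra, Csf3r, Ifngr1, Il3ra and Il6ra. Csf2rb had a mean of 728 FPKM and rank 38 of all 34745 genes, Csf2ra 366 FPKM and rank 89, and Csf2rb2 290 FPKM and rank 112. Csf1r followed at 57.0 FPKM. The next 4, Ifngr2, Il4ra, Csf3r and Ifngr1, lay between 27.3 and 35.02 FPKM, and each overlapped its neighbour in range over the libraries. Il3ra was at 19.0 FPKM and Il6ra at 1.25 FPKM, rank 10159. Csf2ra was above Csf2rb2 in all 3 mTOR-/- libraries and below it in all 3 WT libraries, with means of 472 ± 154 against 262 ± 7.03 FPKM in mTOR-/- cells and 260 ± 27.2 against 317 ± 18.9 FPKM in WT cells. This order rests on the gene lengths behind the FPKM values, 1849 bases for Csf2ra and 4612 for Csf2rb2. In CPM, Csf2ra was below Csf2rb2 in mTOR-/- replicates 1 and 2 and just above it in replicate 3, at 1185 against 1173. On the FPKM scale, Il4ra was above Csf3r in all 3 WT libraries and in 1 of the 3 mTOR-/- libraries. Counts of the 10 genes together took 0.648%, 0.661% and 0.686% of all counts in mTOR-/- cells and 0.639%, 0.688% and 0.619% in WT cells, which overlap.

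**Figure D3:**
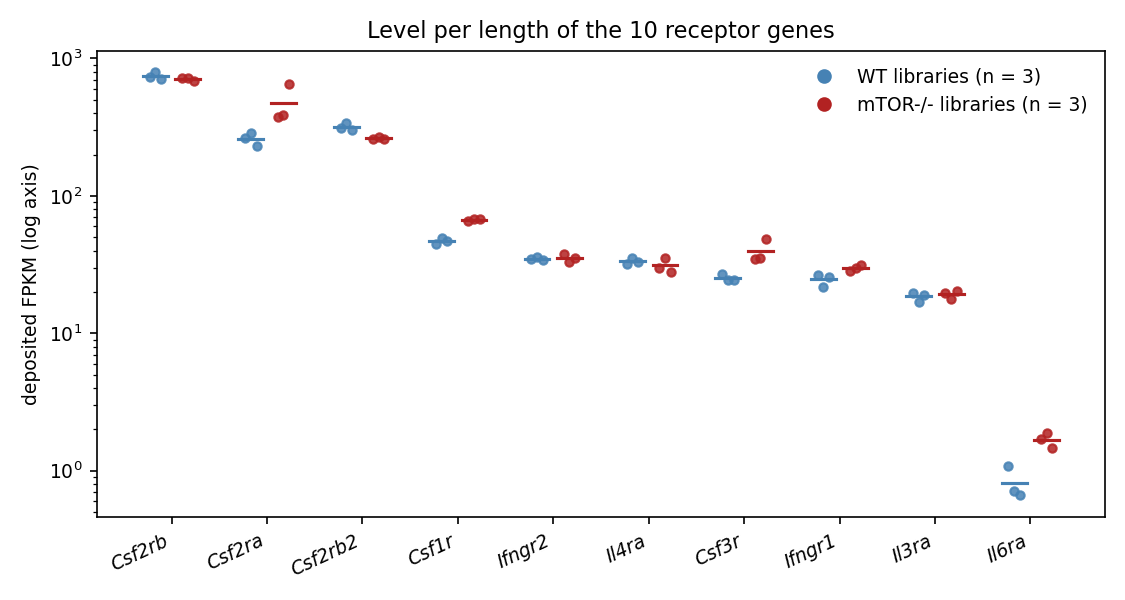
Deposited FPKM of the 10 receptor genes on a log axis, ordered by mean level, with a point for each of the 3 WT and 3 mTOR-/- libraries and a line at the mean of each genotype. The points of the genotypes are fully separated for Csf1r, Csf2ra, Csf3r, Il6ra and Ifngr1, with mTOR-/- higher, and for Csf2rb2, with WT higher, and Csf2ra lies above Csf2rb2 in mTOR-/- cells only.

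Beyond the receptors, 97 genes were listed for the same pathways, some on more than 1 list, of which 81 passed the filter on low counts. At an adjusted p under 0.05, 8 were higher and 5 lower in mTOR-/- cells, against 2.18% and 1.87% of all genes, with a median log2 fold change of 0.08. These 13 calls fell to 7 without mTOR-/- replicate 1 and to 5, 3 and 4 without WT replicates 1, 2 and 3, while 12 were made without mTOR-/- replicate 3. These totals include genes of lists that are not described here. In edgeR's test, no ligand, partner chain, inhibitor, STAT5 response gene or STAT3 response gene passed, among 4, 3, 10, 7 and 7 tested. Medians of those lists were -0.84, -0.03, 0.16, 0.06 and 0.21. At an unadjusted p under 0.05 the same lists had 2, 1, 5, 2 and 3 genes, where 21.2% of all genes passed, and DESeq2 called 1 ligand (Il4, lower), 1 inhibitor (Sh2b3, higher) and 2 STAT3 response genes (Junb and Cebpd, higher) among them, where it called 9.13% of all genes. The STAT5 list held Cish and Socs2, and the STAT3 list Socs3 and Junb. Cish, a feedback inhibitor, was at 392, 387 and 195 CPM in mTOR-/- replicates 1 to 3 and 166, 176 and 387 CPM in WT replicates 1 to 3. The groups overlapped, and Cish did not pass (log2 fold change 0.42, edgeR adjusted p = 0.526).

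Of the 4 JAK kinases, 2 rose, where 2.18% of all genes did; without any 1 of the WT libraries neither was called, and without mTOR-/- replicate 1 only 1 was. Jak3, the kinase that pairs with Il2rg, was at 44.4 ± 7.79 CPM in mTOR-/- cells and 24.6 ± 2.78 CPM in WT cells (log2 fold change 0.85, edgeR adjusted p = 0.0242). Tyk2, which serves interferon and IL-6 family receptors among others, was at 204 ± 30.0 against 143 ± 5.54 CPM (log2 fold change 0.52, edgeR adjusted p = 0.0387). Jak2, which serves the GM-CSF and IL-3 receptors, was at 0.06 on the log2 scale and Jak1 at -0.19, and neither passed (edgeR adjusted p = 0.701 and 0.271).

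**Figure D4:**
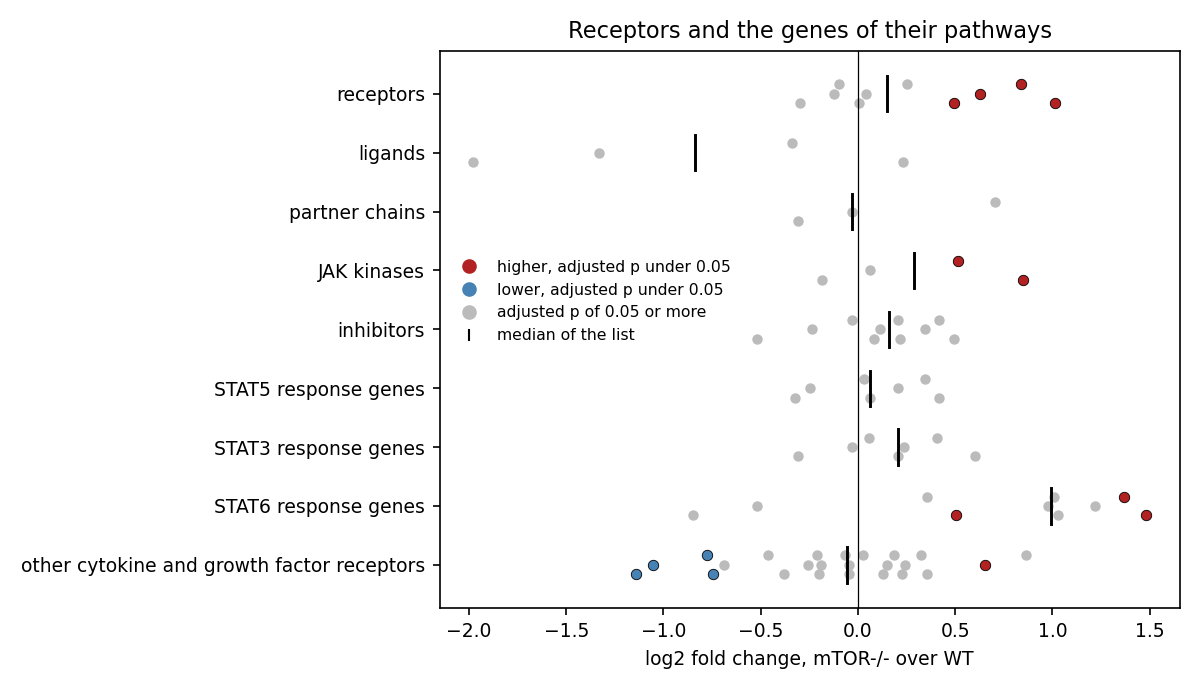
Log2 fold changes of the 10 receptor genes and of the tested genes of 8 pathway lists, with a point per gene, coloured by the edgeR call, and a bar at the median of each list. Called points appear among the receptors, JAK kinases, STAT6 response genes and other receptors, with Il1rl1 the lowest called point at -1.14 and Clec10a the highest at 1.48.

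Of 10 genes that respond to IL-4 and STAT6, 3 rose, 0 fell and 7 did not pass, with a median log2 fold change of 0.99, where 2.18% of all genes rose and 1.87% fell. WT replicate 1 stood below the other WT libraries in several of them, with Ccl22, a chemokine, at 75.4 CPM against 204 and 245 CPM, and Mgl2 at 46.1 against 100.2 and 110 CPM. Without that library the median was 0.59, and 1 of the 10 was called; 1 was also called without mTOR-/- replicate 1, WT replicate 2 or WT replicate 3. Clec10a, a lectin of macrophages and dendritic cells, was at 125 ± 32.8 CPM in mTOR-/- cells and 44.6 ± 10.4 CPM in WT cells (log2 fold change 1.48, edgeR adjusted p = 0.00724), and its close paralog Mgl2 may share reads with it. Retnla, a secreted protein of alternatively activated macrophages, was at a mean of 15.7 against 6.09 CPM (1.37, SE 0.26, edgeR adjusted p = 0.0233). Chil3, a secreted chitinase-like protein, was at 1018 ± 85.4 against 719 ± 45.2 CPM (0.50, edgeR adjusted p = 0.0298). Arg1, which encodes arginase and is a well-known product of MDSCs, did not pass (0.36, edgeR adjusted p = 0.388). Dendritic cell markers, among which Siglech was at 0 in all libraries, summed to 136 to 208 CPM in mTOR-/- cells. In WT cells they summed to 54.8 to 129 CPM, the lowest being WT replicate 1. None of the 4 tested passed. Itgax made up most of each sum (log2 fold change 0.92, edgeR adjusted p = 0.0987). Zbtb46, Clec9a and Flt3 had log2 fold changes of 0.81, -0.39 and -0.46. The part of dendritic cells in the Clec10a value was not tested.

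Of 24 other cytokine and growth factor receptors tested, 1 rose and 4 fell, with a median of -0.06, where 2.18% of all genes rose and 1.87% fell. With single libraries left out, 0 or 1 rose and 1 to 4 fell, 1 fell without WT replicate 2 or WT replicate 3, and 2 fell without mTOR-/- replicate 1. Il17ra, the IL-17 receptor chain, was at 34.7 ± 2.35 CPM in mTOR-/- cells and 22.0 ± 1.12 CPM in WT cells (log2 fold change 0.65, edgeR adjusted p = 0.0290). Kit, the stem cell factor receptor of progenitors and mast cells, was at 74.9 ± 9.37 against 155 ± 3.00 CPM (-1.05, edgeR adjusted p = 0.00139). Il1rl1, the IL-33 receptor of mast cells, was at 7.36 ± 2.47 against 16.3 ± 2.29 CPM (-1.14, edgeR adjusted p = 0.0477). Il7r was at 60.3 ± 5.94 against 101 ± 12.4 CPM (-0.74, edgeR adjusted p = 0.0136), and Il2ra at 117 ± 20.4 against 200.3 ± 18.8 CPM (-0.78, edgeR adjusted p = 0.0162). Cells of other types were at low levels by their markers: T cell markers summed to at most 0.570 CPM in any library, with Cd3e, Cd4 and Cd8a at 0, NK cell markers to at most 1.02 CPM, with Ncr1 at 0, and B cell markers to at most 6.93 CPM. Stem and progenitor markers, Kit among them, summed to 105 to 128 CPM in mTOR-/- cells and 187 to 199 CPM in WT cells. Kit made up most of each sum and was the only 1 of the 4 tested to pass. Cd34, Hlf and Meis1 had log2 fold changes of 0.11, 1.28 and -0.52. Megakaryocyte markers summed to 134 to 170 against 188 to 229 CPM. Of the 2 tested, Itga2b was lower (-0.79, edgeR adjusted p = 0.0314). Pf4 overlapped between the genotypes (-0.14, edgeR adjusted p = 0.620). Erythroid markers summed to 0.815 to 1.24 against 2.99 to 5.63 CPM. The part of mast cells, progenitors and megakaryocytes in the lower receptors was not tested. Kit is itself 1 of those receptors, so the progenitor sum is not separate from them.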

How the data were processed

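The authors deposited unnormalised read counts for each gene in 6 libraries, made from total RNA with the Illumina TruSeq kit, and FPKM values, which were found to equal the counts divided by gene length and library total. The study's methods name Bowtie2, mm10 and HTSeq, while the submitters' processing notes name HISAT2 2.0.4, StringTie 1.3.0, GRCm38.p4 and mm9; the annotation release and the strand setting are not given in the sources used here. The authors' own comparison (group means, log2 ratios, p- and q-values) was not used, nor were 24 repeated per-sample columns of the other tables.

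Counts were fitted in R 4.3.3 with edgeR 4.0.16 (TMM factors, filterByExpr with a minimum count of 10 and a minimum total of 15, quasi-likelihood F test, no covariates) over all 6 libraries. Adjusted p-values are Benjamini-Hochberg values over the 12537 genes kept of 34745. Intervals are 95% intervals of the fitted log2 fold change. CPM used the TMM library sizes. Alternatives were RLE and upper-quartile factors, other filters, DESeq2 1.42.0, limma 3.58.1 on log2 FPKM with a pseudocount of 0.1 or 1, the replicate number as a block, and leaving out each library. Levels between genes and ratios within a library used the deposited FPKM values; ratios had a two-sided exact permutation test. Promoter windows are RefSeq's for GRCm38.p6, and transcripts GENCODE M21; all 10 loci overlapped a gene of that name there, 4 with the same start and end.

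The text names all 10 receptors, every ligand, up to 5 called genes of each related list by p, the 5 genes nearest to Csf1r in centred log2 CPM, Mtor and Lyz2. Marker lists are given as sums. The members and the lists were chosen with earlier results of these data known. Uncalled genes of the related lists, and single marker genes, were named after their values were seen. Precision at low counts is limited by counting error. No library was left out of the fit, and no batch is labelled. One item of the lists and the results that need it are not reported here.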

Additional observations from a re-analysis of the deposited data

How the results depend on the processing

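The 4 receptor genes remained called with RLE and upper-quartile factors, with no filter on low counts, with at least 10 counts in every library and with DESeq2, which called 5, Csf2rb2 being the addition. With single libraries left out, the number called ranged from 0 to 4, and the number called with a fold change of at least 2 from 0 to 1; that number was also 0 with no filter, where Il6ra was at 1.00 on the log2 scale, just under the threshold. Related genes called were 13, 22 with DESeq2 and 3 to 12 with single libraries left out. All genes called numbered 507, 1144 with DESeq2 and 173 to 513 with single libraries left out, the 3 lowest counts being those without a WT library. The summed Csf2rb and Csf2rb2 log2 fold change stayed between -0.18 and -0.10 and was never called. Of 140 alternative values of single receptor genes, 111 kept direction and call, 22 lost the call, 1 gained it and 6 changed sign, all 6 close to zero. Ifngr2 turned to -0.0101 with no filter, -0.0034 with at least 10 counts in every library, -0.0545 without mTOR-/- replicate 1, -0.0157 without WT replicate 1 and -0.0083 without WT replicate 3; Il3ra turned to -0.0235 without WT replicate 2. With single libraries left out, Ifngr2 reached up to 0.045 and Il3ra up to 0.0886. The cause was not tested, beyond that each such fit holds fewer samples or other genes. The limma fits of FPKM kept Csf1r and Csf3r and lost Csf2ra and Il6ra.

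Same-numbered libraries did not deviate together from their group means, with correlations of -0.076, -0.025 and -0.061 across genes. With 3 libraries per genotype, these values cannot show whether the libraries were prepared in pairs. With the replicate number as a block, 0 receptor genes were called, 0 with a fold change of at least 2, 7 related genes and 279 of all genes. The 4 receptors kept their direction and size there, with log2 fold changes of 0.50 for Csf1r, 0.80 for Csf2ra, 0.61 for Csf3r and 1.04 for Il6ra (edgeR adjusted p = 0.0690, 0.0869, 0.0613 and 0.0549).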
